A study of Mus musculus with 10 samples.

Results

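Genes that bring fatty acids into fat cells were compared between mice carrying opposite alleles of an obesity locus. The set was given by name and held 10 genes: Lpl, Gpihbp1, Angptl4, Vldlr, Cd36, Fabp3, Fabp4, Fabp5, Slc27a1 and Slc27a2. Each was read from the array probe set that names it alone, has a value for every mouse and, where there are several, has the highest mean. By that rule 8 of the 10 were measured, out of 19659 genes in all. Fabp3 and Fabp5 have 2 probe sets each in the deposited table, and all 4 are empty for every mouse, so neither gene has a value here.

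The animals were 10 female F2 mice aged 14 weeks, untreated and fed chow. They came from crossing the obese Fat line with a congenic V line, which was itself bred by repeated backcrossing to the Fat line from 1 recombinant founder. FF mice (n = 5) were homozygous at Fob3a for the Fat allele. VV mice (n = 5) were homozygous there for the V allele, which the labels also call the lean-line allele. The contrast is therefore between 2 alleles of a chromosome segment that holds many genes, on a background that both groups largely share. Each array carries RNA of 1 mouse from the inguinal-femoral subcutaneous depot, and the values are normalised log2 intensities between 3.56 and 14.2, on which 1 unit is a 2-fold difference. The number of arrays limits the precision, and different probe sets have different brightness, so no gene's level is set against another's. Where 1 gene's value is subtracted from another's within a mouse, only the difference of that quantity between FF and VV is read. Gene positions are those of the RefSeq annotation of assembly GRCm38.p6; the place of each probe set within its gene was not analysed here.

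White fat takes up most of its fatty acid from triglyceride carried in the blood by chylomicrons and very low density lipoproteins. Lipoprotein lipase (LPL), made by adipocytes and carried across the capillary wall by GPIHBP1, releases the fatty acids at the vessel lumen; ANGPTL4 inactivates the enzyme and the VLDL receptor holds lipoproteins near it. CD36 and the fatty acid transport proteins of the Slc27 family bring the fatty acids into cells, and the small fatty acid binding proteins carry them in the cytosol. Many of these genes are targets of PPAR transcription factors and rise during adipocyte differentiation.

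The tissue label was checked against marker genes. Adipoq, which encodes the adipocyte hormone adiponectin, lay between 13.25 and 13.44 in all 10 mice, and the score of 13 white adipocyte markers (mean log2 value after centring each gene) ran from 0.01 to 0.11 in FF and from -0.11 to 0.05 in VV. RNA of other tissues was not even. All 20 skeletal muscle markers were highest in FF replicate 1, whose muscle score was 1.73 against at most 0.17 in any other mouse. Of 19 liver markers 18 were highest in VV replicate 1, with a liver score of 3.66 there and 0.44 in VV replicate 2, while the other 8 mice lay between -0.72 and -0.28. The brown and beige adipocyte score, taken without Slc27a2, was 0.28 to 1.15 in FF and -1.01 to -0.48 in VV, without overlap. The macrophage score was -0.42 to 0.02 in FF and -0.01 to 0.46 in VV, and the endothelial score was -0.07 to 0.06 and -0.12 to 0.06. The mammary epithelium score was -0.09 to 0.02 and -0.02 to 0.05, with its keratin gene Krt8 between 8.80 and 9.96. Results that rest on FF replicate 1 or VV replicate 1 are given with and without them. In bulk tissue, fewer cells of a type and less RNA per cell cannot be told apart.

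None of the 8 measured genes differed between FF and VV past an adjusted p of 0.05 in limma, whose adjustment covers all 19659 genes; the adjusted p ran from 0.196 for Slc27a1 to 0.993 for Slc27a2. Over all genes 0.753% passed that threshold. At an unadjusted p under 0.05 there was 1 member, Slc27a1, against 16.4% of all genes. For no member were the FF and VV mice separate from each other, while they were for 4.7% of all genes. FF minus VV was positive for 4 members and negative for 4, with a median of 0.0023 against 0.0008 over all genes. The array medians were 7.149 to 7.175 in FF and 7.181 to 7.208 in VV, without overlap. Centring each array on its median therefore raised every difference, and the median over all genes became 0.0378. After this centring 6 members were positive and 2 negative. The members were chosen with earlier results of these data known.

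**Figure D1:**
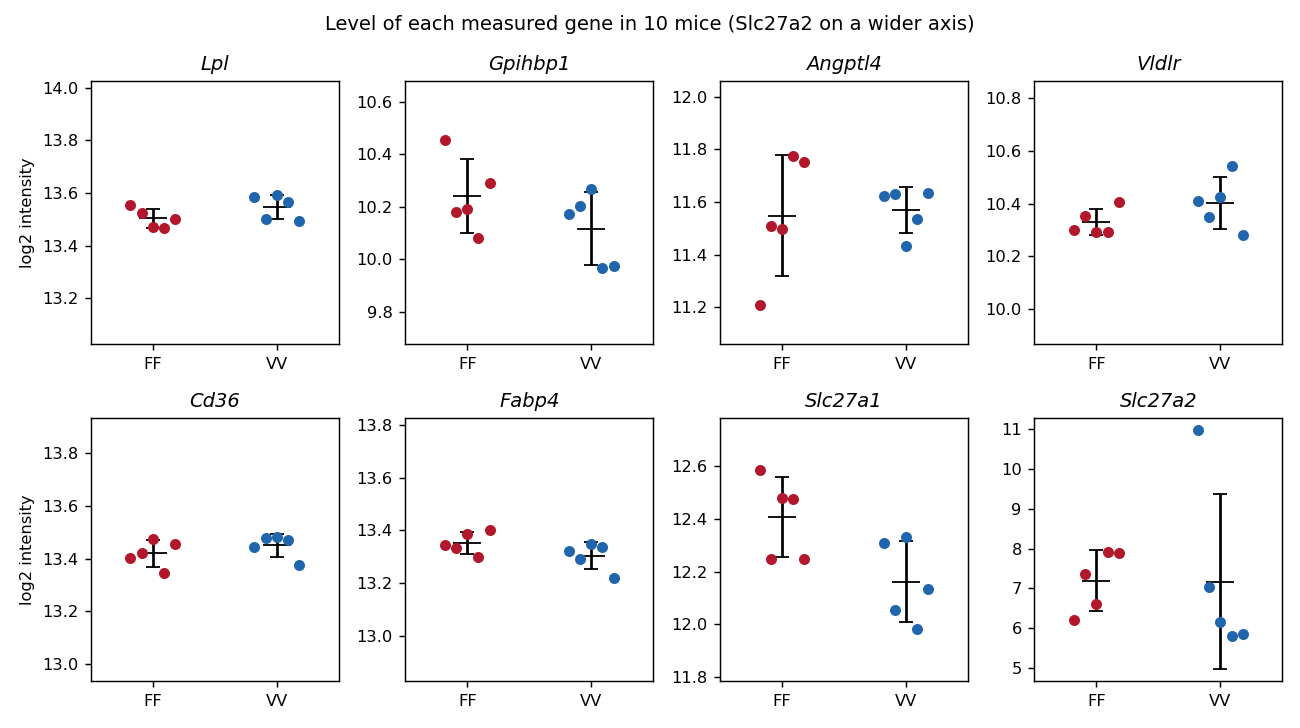
Log2 intensity of the 8 measured genes, with FF mice in red and VV mice in blue, replicates 1 to 5 from left to right within a group; bars are the mean and SD of 5 mice. Every panel spans 1 log2 unit except that of Slc27a2, where VV replicate 1 lies at 10.98; the FF and VV points overlap in all 8 panels.

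Lpl (probe set 10572130, chr8:68880555-68906932) encodes the lipase itself. Its log2 intensity was 13.55, 13.53, 13.47, 13.47 and 13.50 in FF replicates 1 to 5, and 13.58, 13.50, 13.59, 13.56 and 13.50 in VV replicates 1 to 5. All 10 mice lay within a narrow band, and 3 VV mice were above the highest FF mouse. FF averaged 13.50 ± 0.04 and VV 13.55 ± 0.05 (SD, n = 5 each). The difference, FF minus VV, was -0.04 with a standard error of 0.04, which is 0.97-fold with a 95% interval from 0.913 to 1.03 (limma adjusted p = 0.636; two-sided exact permutation p = 0.143). After centring the arrays the difference was -0.0067. The interval above is that of the array signal, which for this probe set lies near the top of the range.

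Gpihbp1 (probe set 10424695, chr15:75596630-75598213) encodes the endothelial protein that binds LPL and carries it to the capillary lumen. It was 10.45, 10.18, 10.19, 10.08 and 10.29 in FF replicates 1 to 5, and 10.17, 10.20, 10.27, 9.97 and 9.97 in VV replicates 1 to 5. Only FF replicates 1 and 5 were above the highest VV mouse. The difference was 0.12 ± 0.08 (SE), 1.09-fold with an interval from 0.961 to 1.23 (limma adjusted p = 0.508). It was 0.07 without FF replicate 1, the mouse with the most muscle RNA, whose part in the result was not tested. Gpihbp1 is the only member on chromosome 15, the chromosome of Fob3a. Its start lies 20.3 Mb beyond the end of Deptor, the gene named in the title of the series, and whether it lies inside the segment that differs between the lines was not analysed here.

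Angptl4 (probe set 10450038, chr17:33774900-33781575) encodes a secreted inhibitor of LPL that fasting and PPAR agonists induce. Its values in FF were 11.21, 11.51, 11.50, 11.77 and 11.75, and in VV 11.62, 11.63, 11.43, 11.54 and 11.63. FF replicates 4 and 5 were the highest of all mice and FF replicate 1 the lowest, so that the FF mice spanned the VV mice on both sides. The means were 11.55 ± 0.23 and 11.57 ± 0.09 (SD, n = 5 each). The difference was -0.02 ± 0.10 (SE), with a fold interval from 0.845 to 1.15 (limma adjusted p = 0.942), and it was 0.06 without FF replicate 1 and 0.01 after centring the arrays.

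Vldlr (probe set 10462281, chr19:27216480-27254231) encodes the receptor that holds triglyceride-rich lipoproteins at the cell surface. FF mice ran from 10.29 to 10.41 and VV mice from 10.28 to 10.54, with 3 VV mice above the highest FF mouse. The difference was -0.07 ± 0.05 (SE), 0.951-fold with an interval from 0.877 to 1.03 (limma adjusted p = 0.546; exact permutation p = 0.198). The FF values were less spread, with an SD of 0.05 against 0.10, and that contrast of spreads was not tested.

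The values of its partners were also subtracted from that of the lipase within each mouse, a quantity that a shift of a whole array leaves as it is. Lpl minus Gpihbp1 averaged 3.26 ± 0.11 for FF mice and 3.43 ± 0.13 for VV mice (SD, n = 5 each), so that FF minus VV was -0.17 (two-sided exact permutation p = 0.0714, adjusted p = 0.214 over 3 comparisons). For Lpl minus Angptl4 it was -0.02 (exact permutation p = 0.897, adjusted p = 0.929). Neither passed the threshold, so no shift of the enzyme's message relative to that of its carrier or its inhibitor was called. The smallest p that 5 mice against 5 allow is 0.00794.

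Cd36 (probe set 10528207, chr5:17781690-17888959) encodes the membrane receptor that takes up long-chain fatty acids in adipocytes, capillary endothelium, muscle and macrophages. It was 13.40, 13.42, 13.48, 13.34 and 13.45 in FF replicates 1 to 5, and 13.44, 13.48, 13.48, 13.47 and 13.38 in VV replicates 1 to 5. The groups covered nearly the same range. The difference was -0.03 ± 0.04 (SE), 0.979-fold with an interval from 0.919 to 1.04 (limma adjusted p = 0.772), and 0.0067 after centring the arrays.

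Fabp4 (probe set 10497265, chr3:10204342-10208616) encodes the main cytosolic fatty acid carrier of adipocytes, which endothelial cells and macrophages also make. It was 13.34, 13.33, 13.38, 13.30 and 13.40 in FF replicates 1 to 5, and 13.32, 13.29, 13.35, 13.34 and 13.22 in VV replicates 1 to 5. FF replicates 3 and 5 were the highest mice and VV replicate 5 the lowest. The difference was 0.05 ± 0.04 (SE), 1.03-fold with an interval from 0.971 to 1.1 (limma adjusted p = 0.608; exact permutation p = 0.127).

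Lpl, Cd36 and Fabp4 were the steadiest members. Their residual SDs between mice of a group were 0.0423, 0.0479 and 0.0458, against a median of 0.108 over all genes. Only 2.31%, 4.16% and 3.49% of all genes had a lower SD. Their probe sets were also among the brightest: 53 genes had a mean of at least 13, and the median SD of those genes was 0.0617. Whether signal this near the top of the arrays still follows the amount of RNA in full was not tested. Adipoq and the lipid droplet gene Cidec, also above 13 in all mice, gave differences of -0.03 and -0.0058 (limma adjusted p = 0.783 and 0.970).

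**Figure D2:**
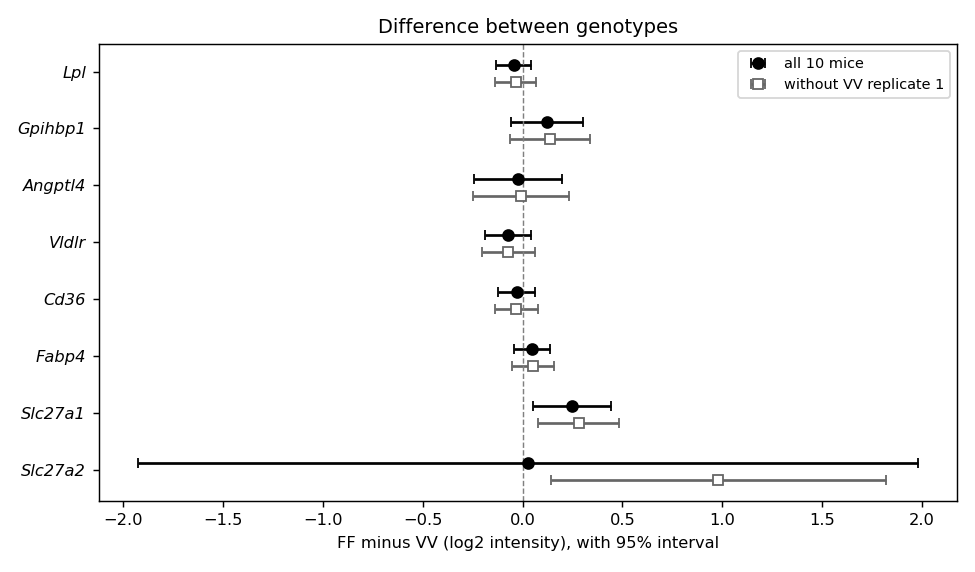
FF minus VV in log2 intensity for each of the 8 genes with its 95% interval from limma, for all 10 mice (filled circles) and without VV replicate 1 (open squares). The interval of Slc27a1 lies above 0 in both, from 0.05 to 0.44 with all mice. That of Slc27a2 runs from -1.93 to 1.98 with all mice and from 0.14 to 1.82 without VV replicate 1. This mouse had the highest Slc27a2 value, so leaving it out raises that difference in advance.

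The Slc27 genes were the only members whose differences reached beyond 0.2 log2 units in any of these fits. Slc27a1 (probe set 10572647, chr8:71568728-71587307) encodes FATP1, the transport protein of fat and skeletal muscle that moves to the cell surface in response to insulin and couples uptake to acyl-CoA formation. Slc27a2 (probe set 10475653, chr2:126553024-126588243) encodes FATP2, a very long-chain acyl-CoA synthetase abundant in liver and kidney. The promoter letters of both are shown because these genes carry the main observations here. Each is the 250 bases before a RefSeq transcription start, read 5′ to 3′ from assembly GRCm38.p6, with nuclear receptor half-sites (AGGTCA, or TGACCT on the other strand) and GC boxes (GGGCGG, or CCGCCC) in capitals.
Slc27a2, chr2:126552774-126553023, plus strand: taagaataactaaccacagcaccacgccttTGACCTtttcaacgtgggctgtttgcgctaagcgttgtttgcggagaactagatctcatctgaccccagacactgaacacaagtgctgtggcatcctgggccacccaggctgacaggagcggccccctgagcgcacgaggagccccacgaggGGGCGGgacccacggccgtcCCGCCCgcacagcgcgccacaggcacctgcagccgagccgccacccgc
Slc27a1, most upstream of 3 starts, chr8:71568621-71568870, plus strand: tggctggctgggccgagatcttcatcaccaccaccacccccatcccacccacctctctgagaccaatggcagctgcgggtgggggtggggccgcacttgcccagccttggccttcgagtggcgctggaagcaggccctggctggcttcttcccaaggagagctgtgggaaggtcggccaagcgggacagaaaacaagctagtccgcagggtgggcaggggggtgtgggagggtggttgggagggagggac

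The Slc27a2 window holds 1 half-site, 220 bases before the start, and 2 GC boxes, which do not overlap it or each other. The window of Slc27a1 holds neither motif, and its other 2 windows hold GC boxes and no half-site. Of 32851 promoter windows of this length 14.0% hold the half-site and 32.7% the GC box. A match is only a match of letters. RefSeq windows were at hand for 5 of the 10 genes, Cd36, Fabp3, Slc27a1, Slc27a2 and Vldlr. Among them Cd36 also holds a half-site, 228 bases before the start used, which lies inside the annotated gene. The assembly is that of strain C57BL/6J, and the letters of the Fat and V lines were not analysed here.

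Slc27a1 had the smallest p of the set. It was 12.59, 12.25, 12.48, 12.48 and 12.25 in FF replicates 1 to 5, and 12.31, 12.06, 12.33, 11.98 and 12.13 in VV replicates 1 to 5. FF replicates 1, 3 and 4 were above every VV mouse, while FF replicates 2 and 5 lay below VV replicates 1 and 3. FF averaged 12.41 ± 0.15 and VV 12.16 ± 0.15 (SD, n = 5 each). The difference was 0.25 ± 0.09 (SE), 1.19-fold with an interval from 1.04 to 1.36. It did not pass over all genes, with a limma adjusted p of 0.196, and the two-sided exact permutation p was 0.0476.

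Single mice moved Slc27a1 across the threshold of the exact test without turning its direction. Leaving out 1 mouse at a time gave differences from 0.20 to 0.29, with limma adjusted p-values from 0.155 to 0.358. The exact permutation p was 0.0952 when FF replicate 1, 3 or 4 or VV replicate 2, 4 or 5 was dropped, and 0.0476 when any of the other 4 mice was. FF replicate 1, with the most muscle RNA, had the highest Slc27a1 value; without it the difference was 0.20, and the part of muscle RNA was not tested. The white adipocyte score was 0.09 higher in FF, and its part was not tested either.

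Slc27a2 varied more than nearly any other gene. It was 6.20, 7.36, 6.61, 7.92 and 7.88 in FF replicates 1 to 5, and 10.98, 7.04, 6.15, 5.80 and 5.86 in VV replicates 1 to 5. VV replicate 1 stood 3.06 log2 units above the next mouse, FF replicate 4. Of all genes 99.9% had a lower residual SD than its 1.64.

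The genotype comparison of Slc27a2 turned on that 1 mouse. With all mice FF averaged 7.20 ± 0.77 and VV 7.17 ± 2.19 (SD, n = 5 each), a difference of 0.03 ± 0.89 (SE; limma adjusted p = 0.993), although the medians, 7.36 and 6.15, differed by 1.21. Without VV replicate 1 the VV mean was 6.21 ± 0.57 (SD, n = 4) and the difference 0.98 ± 0.38 (SE), 1.97-fold with an interval from 1.1 to 3.53. Then 3 of 5 FF mice lay above every remaining VV mouse. This did not pass either, with a limma adjusted p of 0.225, an unadjusted p of 0.0258 and a two-sided exact permutation p of 0.0952. Leaving out any other single mouse instead gave differences from -0.31 to 0.28. VV replicate 1 held the highest value of Slc27a2, so leaving it out raises the difference in advance and favours a low p. Without that mouse 0 of 8 members passed over all genes, where 0.829% of all genes did, and 2 of 8 had an unadjusted p under 0.05, against 16.5% of all genes.

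Liver RNA ran beside these values. The liver score ran 3.66, 0.44, -0.72, -0.28 and -0.58 over VV replicates 1 to 5. The 2 mice with the most were also the 2 highest VV mice for Slc27a2. Among VV replicates 3 to 5 the order was opposite: replicate 4 had the highest liver score and the lowest Slc27a2, and replicate 3 the reverse. Alb, which encodes albumin, was 13.91 and 12.56 in VV replicates 1 and 2 and at most 11.33 elsewhere. Leaving out both of these VV mice, an alternative chosen after seeing the data, gave a Slc27a2 difference of 1.26 (limma adjusted p = 0.194), with all 5 FF mice above the 3 VV mice (exact permutation p = 0.0357, the smallest that 56 assignments allow). Those 2 mice held the highest VV values of Slc27a2, so leaving them out raises the difference in advance and favours a low p. Nothing is concluded from it. Leaving out FF replicate 1 and VV replicate 1 gave 1.23 (limma adjusted p = 0.144). This takes out the lowest FF value and the highest VV value, which also raises the difference in advance. The part of liver RNA in the Slc27a2 values was not tested.

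Within FF, where liver scores stayed between -0.60 and -0.30, Slc27a2 still spanned 6.20 to 7.92. The brown and beige score of those mice was 0.30, 0.85, 0.28, 1.15 and 0.65 in replicates 1 to 5, and Ucp1, the uncoupling protein of thermogenic fat, was 10.17, 11.61, 10.70, 12.09 and 11.02. FF replicates 1 and 3, lowest for Slc27a2, were also lowest for both of these, and FF replicate 4 was highest for all 3 measures. Between FF replicates 2 and 5 the order was opposite: replicate 5 was higher for Slc27a2 and lower for the score and Ucp1. In VV replicates 1 to 5 the brown and beige score was -0.57, -0.48, -0.51, -1.01 and -0.68. VV replicates 2 to 5 had the same order for that score as for Slc27a2, while VV replicate 1 was highest for Slc27a2 only. The part of thermogenic adipocytes in the Slc27a2 level was not tested.

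**Figure D3:**
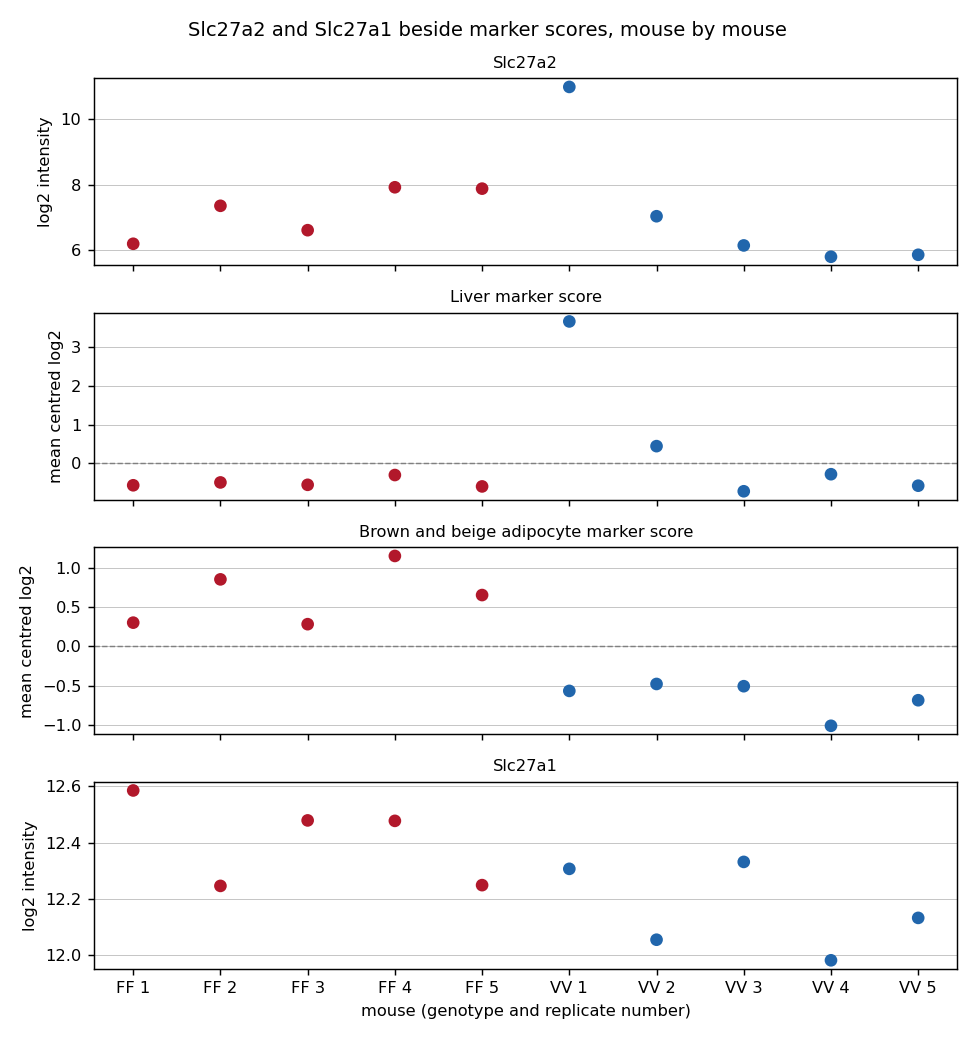
Log2 intensity of Slc27a2 (top) and Slc27a1 (bottom) in each mouse, with the liver score and the brown and beige adipocyte score (mean centred log2 value of the markers) between them; FF mice are red and VV mice blue. VV replicate 1 is highest for Slc27a2, at 10.98, and for the liver score, at 3.66, while the brown and beige score is above 0 in the 5 FF mice only.

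The FF minus VV differences of Slc27a1 and Slc27a2 were also compared, and they were not called different. For Slc27a1 minus Slc27a2 within each mouse, FF minus VV was 0.22 with all mice (two-sided exact permutation p = 0.929, adjusted p = 0.929 over 3 comparisons) and -0.70 without VV replicate 1 (exact permutation p = 0.175, adjusted p = 0.262). The 3 comparisons planned among Fabp3, Fabp4 and Fabp5 could not be made.

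**Figure D4:**
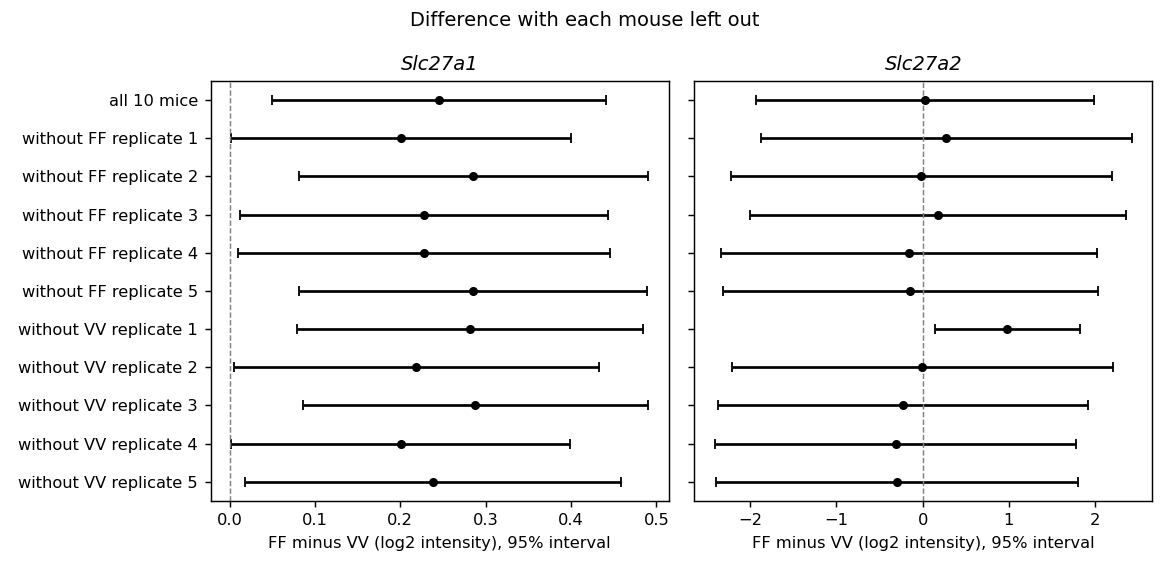
FF minus VV in log2 intensity for Slc27a1 (left) and Slc27a2 (right), with 95% intervals from limma, for all mice and with each mouse left out; the axes differ in scale. Slc27a1 stays between 0.20 and 0.29, and Slc27a2 moves from -0.31 to 0.98, its highest value being the one without VV replicate 1.

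The genes whose variation between mice of the same group was most like that of each member were looked up among 9823 genes of at least median intensity, as a Pearson correlation of deviations from the group means over 10 mice. For Lpl these were the clock repressor Cry2 (0.922) and Rheb, an activator of mTORC1 (0.903). For Cd36 they were Spata6 (0.965) and the endothelial adhesion receptor Adgrl4 (0.963), and for Fabp4 Klhdc8b (0.951) and the growth hormone receptor Ghr (0.941). For Gpihbp1 they were Mgst3 and Mapk6 (0.921 each), for Angptl4 Shq1 (0.959) and Ccdc152 (0.933), for Vldlr Mrps9 (0.895) and Zfp971 (0.871), and for Slc27a1 Lrrc56 (0.943) and Trit1 (0.887).

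For Slc27a2 the most alike were Cdh2 (0.978) and the folate enzyme Shmt1 (0.963), but without VV replicate 1 they were Septin7 (0.964) and Magef1 (0.956). The first gene of Lpl, Gpihbp1, Angptl4, Cd36 and Slc27a1 was the same without that mouse, while that of Vldlr became Inppl1 (0.929) and that of Fabp4 Slc20a2 (0.982). These are the highest of many correlations over few mice, which share the arrays' normalisation and differ in RNA of other tissues. None of the 16 genes named for all mice passed the test between FF and VV.

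Other genes around fatty acid uptake were taken from 6 lists of 89 genes, 81 of them measured. The lists also hold binding proteins, acyl-CoA synthetases and regulators, so not every gene in them acts in uptake itself. In limma 3 of the 81 rose in FF over all genes, against 0.621% of all genes, and 0 fell, against 0.132%. They were Vegfb, Acsm3 and Ppargc1a. The median difference of the 81 was 0.02, and 41 were positive, against 9894 of all 19659 genes. An unadjusted p under 0.05 was found for 23 of the 81, against 16.4% of all genes.

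Vegfb encodes VEGF-B, a factor of mitochondria-rich tissue that acts on capillary endothelium and has been linked to fatty acid transport there. It was 10.96, 10.93, 10.95, 10.88 and 10.96 in FF replicates 1 to 5, and 10.60, 10.38, 10.72, 10.55 and 10.55 in VV replicates 1 to 5. The groups did not overlap. The difference was 0.38 ± 0.06 (SE), 1.3-fold (limma adjusted p = 0.0333). Its receptors gave 0.14 for Flt1 (adjusted p = 0.231) and -0.10 for Nrp1 (adjusted p = 0.553), and none of the 10 measured genes of endothelial control other than Vegfb passed.

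Acsm3 encodes a mitochondrial medium-chain acyl-CoA synthetase. It was 10.22, 10.09, 10.61, 10.08 and 10.11 in FF replicates 1 to 5, and 9.15, 8.66, 9.64, 9.34 and 9.04 in VV replicates 1 to 5, again without overlap. The difference was 1.05 ± 0.17 (SE), 2.08-fold (limma adjusted p = 0.0334). Both Vegfb and Acsm3 lost the call when any of FF replicates 1, 2 and 5 or VV replicates 2, 4 and 5 was dropped, with a limma adjusted p of at most 0.0898.

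The third gene, Ppargc1a, the coactivator of mitochondrial and thermogenic genes, was 8.14, 8.84, 8.50, 8.27 and 8.56 in FF replicates 1 to 5, and 7.38, 7.19, 7.66, 7.70 and 7.44 in VV replicates 1 to 5, also without overlap. The difference was 0.99 (limma adjusted p = 0.0219). The call was lost when FF replicate 5 (adjusted p = 0.0507), VV replicate 2 (0.0718) or VV replicate 5 (0.063) was dropped. Ppargc1a is also 1 of the 16 brown and beige markers, of which 6 rose in FF, against 0.621% of all genes. The part of thermogenic adipocytes in the values of Vegfb, Acsm3 and Ppargc1a was not tested. Ppargc1a belongs to the list of 13 regulators of uptake genes, of which 10 had a positive difference, with a median of 0.15. Next by p among them was Cebpa, a transcription factor of adipocyte differentiation, at 0.27 (limma adjusted p = 0.0914, but 0.0490 with centred arrays and 0.0479 without VV replicate 3).

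**Figure D5:**
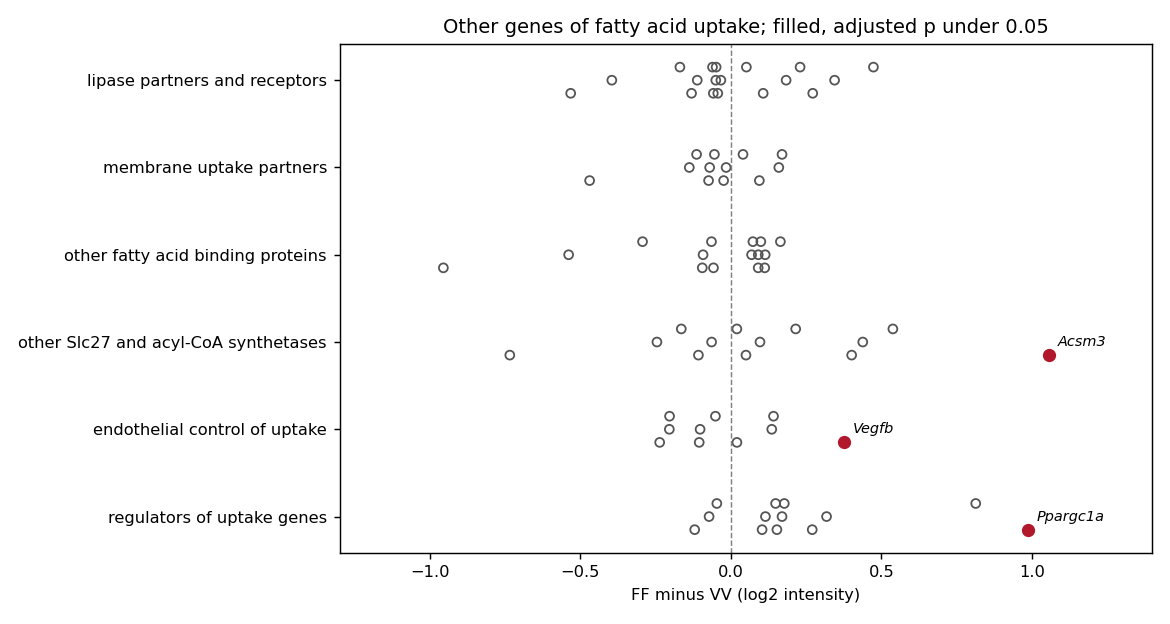
FF minus VV in log2 intensity for the 81 measured genes of 6 lists around fatty acid uptake, 1 point a gene, spread vertically only for legibility; filled points passed an adjusted p of 0.05 in limma. The filled points are Acsm3 at 1.05, Vegfb at 0.38 and Ppargc1a at 0.99.

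None of the remaining genes passed over all genes in the values as deposited, with all mice, equal weights for the arrays and no filter on dim genes. Among 18 lipase partners and receptors the median was -0.05, and the smallest p belonged to Furin, a protease that cleaves LPL, at 0.27 without overlap (limma adjusted p = 0.0964, but 0.0442 with centred arrays, 0.0469 with array weights and 0.0357 without FF replicate 3), and to the sorting receptor Sorl1, at 0.34 (adjusted p = 0.166). Lmf1, the chaperone that LPL needs to fold, differed by 0.18 (adjusted p = 0.230), and Angptl8, a further LPL regulator, by 0.47 (adjusted p = 0.449); both were chosen after their values were seen. Among 12 membrane partners the median was -0.04; Zdhhc4, an enzyme that palmitoylates CD36, gave 0.16 (adjusted p = 0.150) and the caveolar coat gene Cavin1 -0.11 (adjusted p = 0.306).

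Among 15 other binding proteins the median was 0.07. Fabp7, the brain type of the family, was 7.69, 7.76, 8.04, 7.93 and 7.94 in FF replicates 1 to 5, and 8.35, 8.86, 8.55, 8.17 and 8.12 in VV replicates 1 to 5, without overlap. Its difference was -0.54 ± 0.13 (SE; limma adjusted p = 0.0788, and 0.0489 with array weights or without the genes under median intensity). Acbd4, an acyl-CoA binding protein, differed by 0.16 (adjusted p = 0.140). Among 13 Slc27 genes and acyl-CoA synthetases other than the members the median was 0.05, and Slc27a6 differed by -0.25 (adjusted p = 0.140).

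A group of 6 genes of these lists, chosen after their values were seen, showed the same mouse as Slc27a2. Each exceeded its next highest mouse by more than 1 log2 unit in VV replicate 1, as did 1.24% of all genes. Fabp1, the liver type of the binding proteins, was 9.09 there and at most 6.27 elsewhere. Slc27a5, a Slc27 gene of liver, was 8.25 against at most 5.45. The others were Apoc3, Apoa5, Mfsd2a and Fabp2. Without that mouse FF minus VV was 0.32 for Apoc3, -0.21 for Fabp1 and -0.15 for Slc27a5. It was -0.12 for Apoa5, -0.06 for Mfsd2a and -0.01 for Fabp2, and 0.98 for Slc27a2.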

How the data were processed

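Expression was measured in 10 mice, 5 FF and 5 VV, on one-colour arrays. The deposited values are log2 intensities per probe set that the authors made with RMA, per the submitters' processing notes. The RMA version is not given in the sources used here, nor is the build. Of 35557 probe sets 25689 had values and 20777 of those named 1 gene; the rest were left out. Symbols and positions came from RefSeq on GRCm38.p6. Differences (FF minus VV) were fitted in R 4.3.3 with limma 3.58.1 (lmFit, eBayes, two-sided) over 19659 genes with Benjamini-Hochberg adjustment and a threshold of 0.05. Single values were also tested by exact permutation of mice, without adjustment over the members. P-values measure the spread between separate animals. The procedure was tested on simulated data. Figures used matplotlib 3.10.9.

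Named are the members, the 2 genes of each wider list with the smallest p and any past the threshold, the 2 genes most like each member, and, from each marker list, its defining gene or the brightest ones. Outside this rule are Nrp1, named as a receptor of VEGF-B, and the genes said to be chosen after their values were seen. The members and lists were chosen with earlier results of these data known. Alternatives were leaving out each mouse, FF replicate 1 with VV replicate 1, quantile normalisation, the replicate number as a block, median centring, 2 filters on dim genes, the mean of probe sets, a trend with robust settings, array weights and no moderation; leaving out VV replicates 1 and 2 together, and VV replicate 1 from the likeness search, were added after seeing the data.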

Additional observations from a re-analysis of the deposited data

Results flagged for a closer look

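Of 30 groups of 5 mice examined for a mouse far from the rest, 16 of members and 14 of marker scores, 4 had one. About 1 in 20 would by chance if the groups were independent. They share mice and arrays, and most of the 4 came from VV replicate 1, so the count is not read against that rate. Slc27a2 in VV replicate 1 was 10.98, with the other VV mice between 5.80 and 7.04. The liver score of the same mouse was 3.66, with the other VV mice between -0.72 and 0.44, and its muscle score was 0.17, with the others between -0.39 and -0.29. The muscle score of FF replicate 1 was 1.73, with the other FF mice between -0.44 and 0.12. No member other than Slc27a2 had such a mouse in either group.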

How the results depend on the processing

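No member passed an adjusted p of 0.05 in limma under any alternative run; the lowest adjusted p was 0.109, for Slc27a1 with centred arrays. Lpl and Vldlr stayed negative and Gpihbp1, Fabp4 and Slc27a1 positive in all of them. Angptl4 ran from -0.079 to 0.0623 as single mice were dropped and was 0.0753 when FF replicate 1 and VV replicate 1 were, 0.0149 when VV replicates 1 and 2 were, 0.0144 with centred arrays and 0.0207 with array weights. Cd36 was 0.0067 with centred arrays, and Slc27a2 ran from -0.31 to 0.98 as single mice were dropped. The exact permutation test, unadjusted over the members, called 0 or 1 member as single mice were dropped. It called 0 when FF replicate 1 and VV replicate 1 were. The filter at the median removed Slc27a2.

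Of all genes 148 passed with all mice. Dropping FF replicates 1 to 5 in turn gave 17, 12, 379, 59 and 21, and dropping VV replicates 2 to 5 gave 7, 74, 18 and 17. The count was 28 when FF replicate 1 and VV replicate 1 were dropped, 8 when VV replicates 1 and 2 were, 601 with centred arrays, 230 and 355 when genes under the 25th percentile or the median were left out, 383 with array weights and 7 unmoderated. The 3 genes of the wider lists became 0 to 4 as single mice were dropped, 1 when FF replicate 1 and VV replicate 1 were, 0 when VV replicates 1 and 2 were, 5 with centred arrays or array weights and 0 unmoderated. With a replicate block 5 genes passed, 1 of them in the wider lists (Acsm3, limma adjusted p = 0.0446); Vegfb and Ppargc1a had 0.143. Groups share only the number: deviations of same-numbered mice correlated at 0.102, 0.011, -0.083, -0.264 and -0.151 over genes.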
